A study of Mus musculus with 6 samples.

Results

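The Zfp genes are the mouse genes whose symbol begins with Zfp and a number, most of which encode zinc finger proteins. They were taken from the count table by symbol alone, which gave 132 of the 7507 genes listed. The table came from BALI-Multiome, a method in which DNA indexes are ligated to cDNA in place and light decides which area of a tissue section receives which index. On 3 coronal cryosections (10 μm) of fresh frozen adult mouse brain, light was directed first at the dentate gyrus (DG) and then at CA1. Each area received its own last index of a barcode with 4 digits. Each section thus gave a DG and a CA1 library of polyA RNA, and the 6 libraries are paired by section. The study says that its DG area possibly took in a small part of the hilus. The labels give an age of 12 weeks, the protocol gives 8 to 12 months, and no genotype or treatment is given. The study calls its replicates biological, but the labels do not say whether the sections came from separate animals, so p-values measure only the spread between sections. The chromatin libraries of the same experiment were not analysed here.

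A C2H2 zinc finger is a short fold in which a pair of cysteines and a pair of histidines hold a zinc ion. Some of its other residues can contact DNA. Most Zfp proteins carry such fingers. Many also carry a KRAB A box at the N-terminus, which recruits the corepressor Trim28 and through it the histone methyltransferase Setdb1, and this pathway is known for silencing retroelements and for keeping genomic imprints. Other members have no KRAB box and act as transcription factors, chromatin adaptors or RNA binding proteins. Neurons and glia both use large numbers of these genes, usually at low mRNA levels.

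The finger is shown here as it is encoded in the 4 members with the most UMIs (unique molecular identifiers, which count molecules rather than reads). Each line is the sense strand, 5′ to 3′, of 1 finger from the RefSeq coding sequence on GRCm38.p6, and the capitals mark the codons of the zinc-holding cysteines and histidines.
Zfp827, finger 1 of 9: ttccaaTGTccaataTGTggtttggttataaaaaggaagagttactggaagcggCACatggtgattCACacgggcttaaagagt
Zfp445, finger 5 of 12: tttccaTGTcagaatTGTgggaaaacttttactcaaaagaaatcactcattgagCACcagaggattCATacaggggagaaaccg
Zfp950, finger 1 of 17: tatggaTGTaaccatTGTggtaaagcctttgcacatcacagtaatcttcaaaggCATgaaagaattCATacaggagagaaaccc
Zfp871, finger 2 of 15: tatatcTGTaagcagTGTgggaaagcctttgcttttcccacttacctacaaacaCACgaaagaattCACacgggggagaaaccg

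These stretches lie within coding exons at chr8:79070397-79070480 on the plus strand for Zfp827, and on the minus strand at chr9:122852892-122852975 for Zfp445, chr19:61120254-61120337 for Zfp950 and chr17:32775456-32775539 for Zfp871. The last 3 end in the linker that joins consecutive fingers in KRAB zinc finger proteins, whereas the finger of Zfp827 does not. Zfp445, Zfp950 and Zfp871 match a KRAB A box pattern, and Zfp827 does not.

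The libraries were shallow. Sections 1, 2 and 3 gave 17999, 4572 and 6298 UMIs in DG and 9357, 2844 and 4865 in CA1, and DG depth exceeded CA1 depth 1.92, 1.61 and 1.29 times. A count of 0, which allows up to 3 UMIs, leaves room for 166.7 counts per 1000000 UMIs (CPM) in the deepest library and 1055 CPM in the shallowest. These limits and all intervals given here cover counting error only. Markers of the 2 areas were sparse and did not all run the way their labels say. Of 8 DG granule cell markers 4 were listed, without Prox1 and C1ql2, and they took between 0.016% and 0.078% of the UMIs in DG and between 0% and 0.085% in CA1, with the DG share higher in 1 of 3 sections. Among them Synpr had 5, 0 and 1 UMIs in DG and none in CA1, whereas Calb1 had 1, 1 and 0 in CA1 and none in DG. Of 7 CA1 pyramidal cell markers 6 were listed, at 0.022% to 0.044% in DG and 0.035% to 0.096% in CA1, with the DG share higher in 1 of 3 sections. Wfs1 and Neurod6 had 2 UMIs each, all in the CA1 library of section 1, and Pou3f1 had 2, 2 and 2 in DG and 4, 0 and 0 in CA1. Oligodendrocyte markers (6 of 7 listed) took between 0.503% and 0.794% of the UMIs in DG and between 0.668% and 0.994% in CA1, with the CA1 share the higher one in every section.

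Zfp transcripts made up about 1% of the UMIs in both areas. The DG libraries held 174, 45 and 62 Zfp UMIs and the CA1 libraries 106, 27 and 52, which sum to 466 of 45935. As a share of the library this was 0.967%, 0.984% and 0.984% in DG and 1.13%, 0.949% and 1.07% in CA1. The 6 shares span a narrow range, and all of their exact binomial 95% intervals overlap. The widest interval, from 0.627% to 1.38%, belonged to the CA1 library of section 2.

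**Figure D1:**
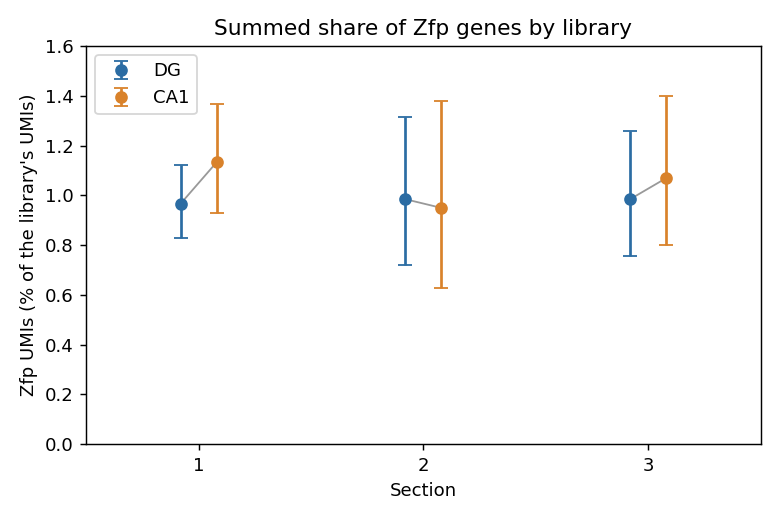
Zfp UMIs as a percentage of all UMIs (vertical axis) in each section (horizontal axis), for DG and CA1; bars are exact binomial 95% intervals and grey lines join the libraries of a section. All 6 points lie between 0.949% and 1.13% and the intervals overlap.

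The mean share was 0.978% ± 0.010 (SD, n = 3) in DG and 1.05% ± 0.093 (SD, n = 3) in CA1. Within sections the log2 ratio of DG over CA1 was -0.23, 0.05 and -0.12, a mean of -0.10 ± 0.14 (SD, n = 3), so the difference between areas was smaller than the spread between sections. With the UMIs of the sections pooled, the ratio was 0.898 with an exact 95% interval of 0.743 to 1.09. The interval contains 1, so these counts do not settle the direction of a difference.

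The number of Zfp genes with at least 1 UMI followed depth. DG had 77, 32 and 39 such genes in sections 1, 2 and 3 and CA1 had 68, 24 and 31, fewer in every section. When each library was reduced by calculation to the 2844 UMIs of the smallest, the expected numbers were 22.04, 22.12 and 21.91 in DG and 27.01, 24 and 20.98 in CA1. The order then turned in sections 1 and 2, and the mean log2 ratio of DG over CA1 was -0.12 ± 0.18 (SD, n = 3), within the spread between sections.

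**Figure D2:**
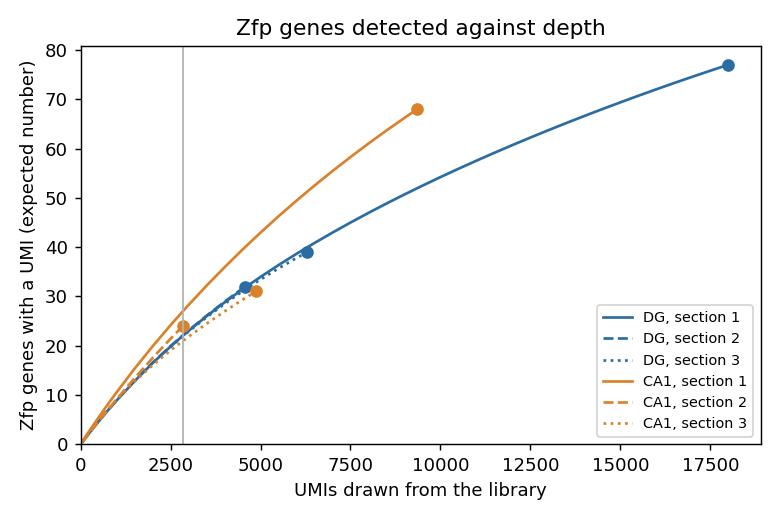
Expected number of Zfp genes with a UMI (vertical axis) against the number of UMIs drawn from a library (horizontal axis) for DG (blue) and CA1 (orange); dots mark the full libraries and the grey line the depth of the smallest. At 2844 UMIs the curves lie between 20.98 and 27.01 genes, with CA1 of section 1 the highest.

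Zfp genes took up 1.76% of the genes listed but 1.01% of the UMIs. Their median was 2 UMIs over all 6 libraries against 3 for all genes, and 51 members (38.6%) rested on a single UMI against 32.7% of all genes. Only 9 members (6.82%) reached 10 UMIs, as did 13.3% of all genes. Altogether 58 members had UMIs in 1 library and 4 in all 6 libraries, which is 3.03% of members against 5.25% of all genes.

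In each area 95 members were detected, and 58 of them in both areas, which is 61.1% of either set. The 37 members seen in DG alone held 67 UMIs, at most 5 each, and the 37 seen in CA1 alone held 42 UMIs, at most 2 each. Of these, 19 and 32 members rested on 1 UMI, which can only fall in 1 area. In section 1 the areas shared 42 members, 54.5% of those in DG and 61.8% of those in CA1, and in section 2 they shared 8, 25% and 33.3%. Pooled depth differed, at 28869 UMIs in DG and 17066 in CA1. The shares of all genes seen in 1 or both areas were not calculated, so these numbers are not read as a trait of the family.

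The 12 members with the most UMIs held 180 UMIs, 38.6% of the total. Zfp827, whose human counterpart brings the NuRD chromatin remodelling complex to telomeres, led with 36 and ranked 133rd among all genes. It had 10, 4 and 7 UMIs in DG and 9, 1 and 5 in CA1, or 556, 875 and 1112 CPM against 962, 352 and 1028 CPM. The CA1 library of section 2 was the lowest and the areas overlapped. The mean was 847 ± 279 CPM (SD, n = 3) in DG and 780 ± 373 in CA1 (two-sided exact permutation p = 0.8), while the ratio of pooled shares lay on the other side of 1, at 0.828 (0.407 to 1.73).

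Zfp445 is a KRAB protein that keeps genomic imprints together with Zfp57. It had 8, 1 and 3 UMIs in DG and 3, 1 and 7 in CA1. At 1439 CPM the CA1 library of section 3 stood above the other 5, which lay between 219 and 476 CPM. The areas overlapped, with means of 380 ± 140 CPM (SD, n = 3) in DG and 704 ± 637 in CA1 (exact permutation p = 0.7). Without section 3 the difference between the means shrank from -324 to -4.52 CPM.

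Zfp950 and Zfp871 are KRAB zinc finger genes. Zfp950 had 8, 2 and 3 UMIs in DG and 2, 0 and 3 in CA1. Its DG libraries were close to each other at 437 to 476 CPM, while CA1 ranged from 0 to 617 CPM on both sides of them (exact permutation p = 0.4). Zfp871 had 7, 4 and 2 UMIs in DG and 2, 1 and 1 in CA1. It was higher in DG in 3 of 3 sections, at 527 ± 303 CPM (SD, n = 3) against 257 ± 82.1, but the lowest DG library lay below the highest CA1 library (exact permutation p = 0.2) and the interval of the pooled ratio ran from 0.594 to 8.09.

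Zfp318, which B cells need to express IgD, is the fourth member detected in all 6 libraries, beside Zfp827, Zfp445 and Zfp871. It had 5, 1 and 1 UMIs in DG and 3, 1 and 2 in CA1. All CA1 libraries lay above all DG libraries in CPM, with 361 ± 46.0 against 218 ± 59.5 (SD, n = 3, exact permutation p = 0.1). Yet the order in section 2 came from 1 UMI in each library and their different depths.

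**Figure D3:**
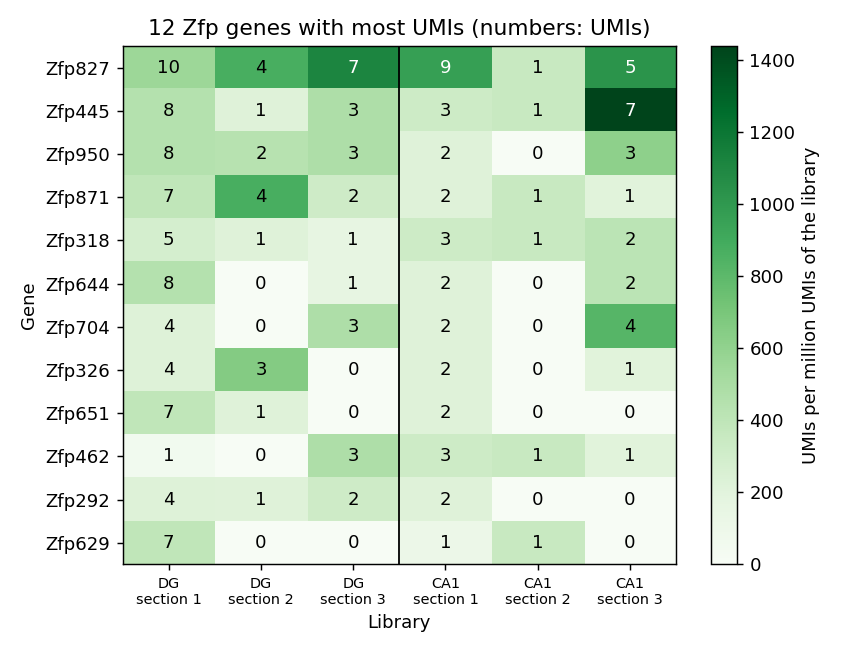
UMIs (numbers) and CPM (colour) of the 12 Zfp genes with most UMIs (rows) in the 6 libraries (columns). Zfp827 has UMIs everywhere, Zfp445 is darkest in CA1 of section 3 with 7 UMIs, and 0 is frequent in section 2.

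The other 7 each had between 9 and 13 UMIs. Zfp644, a partner of the G9a and GLP histone methyltransferases, had 8, 0 and 1 in DG and 2, 0 and 2 in CA1. Zfp704 had 4, 0 and 3 against 2, 0 and 4. Neither showed a direction that held across sections. Zfp326, part of a complex that couples transcription to splicing, had 4, 3 and 0 against 2, 0 and 1. Zfp651 had 7, 1 and 0 against 2, 0 and 0, and Zfp629 had 7, 0 and 0 against 1, 1 and 0. In both the UMIs came mostly from the deep DG library of section 1. Zfp462 and Zfp292 are large zinc finger genes whose human counterparts are mutated in neurodevelopmental disorders. Zfp462 had 1, 0 and 3 UMIs in DG and 3, 1 and 1 in CA1, while Zfp292 had 4, 1 and 2 against 2, 0 and 0. Zfp292 was higher in DG in every section and its areas did not overlap, at 253 ± 56.1 CPM against 71.2 ± 123 (SD, n = 3, exact permutation p = 0.1). Yet its lowest DG value, 219 CPM from 1 UMI in section 2, lay just above the 214 CPM of CA1 in section 1. The counts of 0 in CA1 of sections 2 and 3 leave room for 1055 and 617 CPM.

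Of the 12 members, 6 had the higher mean CPM in DG and 6 in CA1. For Zfp827, Zfp644 and Zfp629 the ratio of pooled shares pointed the other way, at 0.828, 1.33 and 2.07. The exact 95% interval of the pooled ratio contained 1 for all 12. A permutation of 3 against 3 libraries cannot give a p below 0.1, and sign changes over the 3 sections cannot give one below 0.25, so that no single gene could pass a threshold of 0.05 in these tests.

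**Figure D4:**
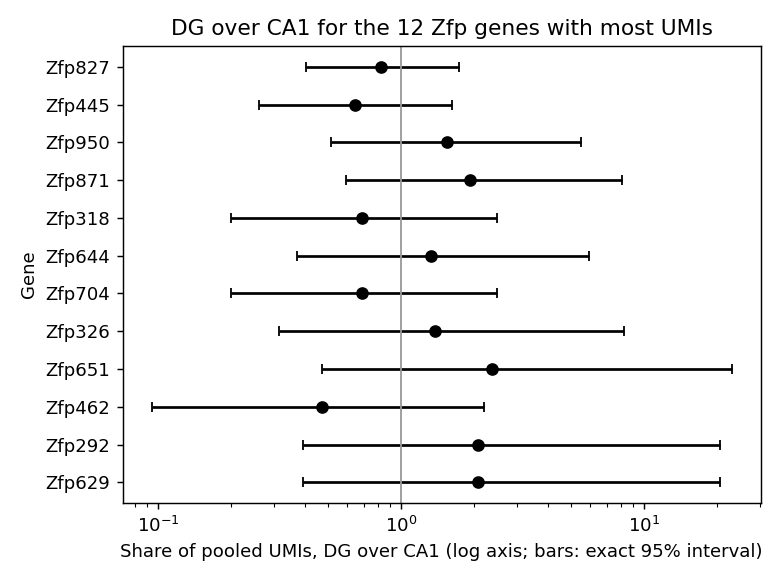
Share of pooled UMIs in DG over that in CA1 (horizontal log axis) for the 12 Zfp genes with most UMIs (rows); points are ratios, bars exact 95% intervals for counting error, and the line marks 1. Every bar crosses 1, and those of Zfp651, Zfp292 and Zfp629 reach above 20.

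In the fit across all genes (edgeR's quasi-likelihood test with Benjamini-Hochberg adjustment), 43 genes passed the filter on low counts and no member was among them. No gene of these was called (0%), 3 had an unadjusted p under 0.05, and DESeq2 on the same genes called 0, with 0 at an unadjusted p under 0.05. Asking instead for 3 UMIs in 3 libraries left 496 genes, of which 0.202% were called, and 4 of these genes were members. None of the 4 was called, and their log2 fold changes of DG over CA1 were -0.08 ± 0.57 (SE) for Zfp827, -0.57 ± 0.72 for Zfp445, 0.69 ± 0.88 for Zfp950 and -0.42 ± 1.09 for Zfp704, with an edgeR adjusted p of 0.998 each. With no filter, all 132 members were tested, 0 were called and 0 had an unadjusted p under 0.05 in edgeR, against 0% called and 127 genes with an unadjusted p under 0.05 among all 7507. The median log2 fold change of all genes in that fit was 0.46, so a member's value is read against it.

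All DG libraries lay above all CA1 libraries for 4 members, 3.03% of the 132, against 3.04% of all genes. They were Zfp292, Zfp612, Zfp799 and Zfp180. The opposite held for 2 members, Zfp318 and Zfp386, 1.52% against 1.4% of all genes. The shares among members were near those of all genes. Zfp612 had 2, 1 and 2 UMIs in DG and 1, 0 and 0 in CA1, Zfp799 had 3, 1 and 1 against 1, 0 and 0, and Zfp386 had 1, 0 and 0 against 1, 1 and 1. Zfp612, Zfp799 and Zfp386 were named after their values were seen.

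Of the 37 members with at least 4 UMIs, 4 (10.8%) had them all in DG and 0 all in CA1, against 10.5% and 1.13% of the 2929 genes with at least 4 UMIs, so the share in DG was near that of all genes. Zfp282 had 4, 0 and 1 UMIs there, Zfp180 had 1, 1 and 2, Zfp609 had 2, 2 and 0, and Zfp771 had 2, 0 and 2. Zfp609 is known as a partner of the cohesin loader Nipbl in neural progenitors. The pooled depth was 28869 UMIs in DG and 17066 in CA1, and since a count of 0 allows up to 3 UMIs, no fold is given for these genes. No member with more than 2 UMIs was seen in CA1 alone.

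By role, the members known for RNA binding (7 of 8 listed) held 29 UMIs. Zfp207, which binds microtubules and helps build the mitotic spindle, had 5, 0 and 0 in DG and 0, 1 and 0 in CA1. Zfp106, which binds repeat RNA and is needed in motor neurons, had 2, 0 and 0 against 3, 0 and 0, but 24.2% of the stretches of 100 bases in its transcript also occur in another gene. Zfp638 had 1, 1 and 0 against 1, 0 and 0. The list took 0.072%, 0.087% and 0.016% of the UMIs in DG and 0.096%, 0.035% and 0.021% in CA1, and the areas overlapped. The CCCH family that destabilises mRNA (Zfp36, Zfp36l1 and Zfp36l2) was not among the genes listed.

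Of 12 genes with roles in the nervous system, 6 were listed under a Zfp symbol, with 31 UMIs. Another of the 12, Zfp238, was listed as Zbtb18, with 8, 0 and 0 UMIs in DG and 1, 1 and 0 in CA1. It is left out of these sums. Zfp148, a transcription factor that binds GC-rich promoters, had 2, 2 and 1 UMIs in DG and 1, 0 and 2 in CA1. Zfp365 had 1, 0 and 1 against 0, 1 and 0. The 6 genes together took 0.044%, 0.087% and 0.127% of the UMIs in DG and 0.064%, 0.070% and 0.062% in CA1, and the areas overlapped. Of 6 KRAB genes known for imprints and retroelements, 4 were listed with 28 UMIs, most of them from Zfp445. Zfp932, a repressor of endogenous retroviruses, had 2, 0 and 0 against 0, 0 and 1, and 22.1% of its stretches occur in another gene. This list also overlapped, at 0.056%, 0.022% and 0.048% in DG and 0.053%, 0.035% and 0.164% in CA1. Genes with roles in stem cells and growth (7 of 11 listed) held 15 UMIs. Among them Zfp322a had 2, 1 and 0 against 1, 2 and 0 and Zfp91 had 1, 0 and 1 against 0, 0 and 1. The 7 genes took 0.028%, 0.022% and 0.016% of the UMIs in DG and 0.032%, 0.070% and 0.062% in CA1. The CA1 share was the higher one in every section and the areas did not overlap, but each library held only 1 to 5 of these UMIs and no test was made.

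The members that matched the KRAB A box pattern formed the smaller group, and their summed share was lower in DG than in CA1 in each section. Of 130 members with a coding sequence in RefSeq, 53 matched the pattern and held 180 UMIs, and 77 did not and held 283. The members without one, Zfp862-ps and Zfp652os, had 2 and 1 UMIs, and 3 of the 130 had no C2H2 finger by pattern. A match is a description of the sequence, and the pattern can miss a KRAB box: 6 of the 77, with 17 UMIs and Zfp282 among them, matched another KRAB pattern. The 53 members took 0.361%, 0.372% and 0.302% of the UMIs in DG and 0.492%, 0.457% and 0.411% in CA1. The highest DG share lay below the lowest CA1 share. The log2 ratio of DG over CA1 was -0.44, -0.30 and -0.45, a mean of -0.40 ± 0.09 (SD, n = 3), and the pooled ratio was 0.756 with an exact 95% interval of 0.557 to 1.03, which contains 1. The shares rest on only 65, 17 and 19 UMIs in DG and 46, 13 and 20 in CA1. The SD is the spread of 3 ratios and does not give the counting error of each.

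The 77 members outside the pattern took 0.606%, 0.569% and 0.683% in DG and 0.631%, 0.492% and 0.658% in CA1. These overlapped, with a mean log2 ratio of 0.07 ± 0.13 (SD, n = 3) and a pooled ratio of 1.00 (0.783 to 1.29). With the 59 members that matched either pattern, the KRAB mean was -0.33 ± 0.11 (SD, n = 3). No test was made of the KRAB shares or of their difference from the other members. The oligodendrocyte marker share was also higher in CA1 in every section and the CA1 libraries were shallower in every section. Their part in the result was not tested. With counts as deposited the KRAB mean was -0.22, and without members that share over 10% of their stretches with another gene it was -0.29.

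**Figure D5:**
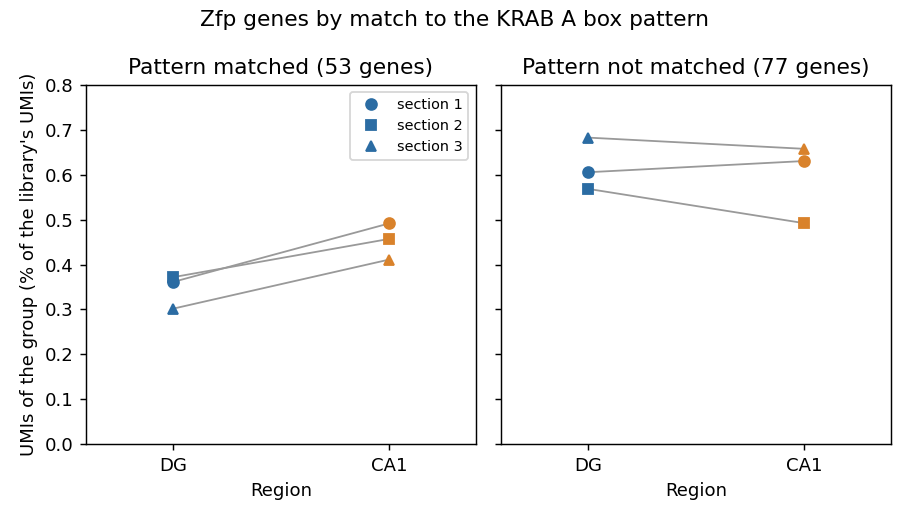
Summed UMIs as a percentage of the library (vertical axis) in DG and CA1 (horizontal axis) for 53 members that match the KRAB A box pattern and 77 that do not; symbols are sections and lines join the libraries of a section. All 3 lines rise toward CA1 on the left, from 0.302-0.372% to 0.411-0.492%, and do not share a direction on the right.

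The listed genes around this pathway had a median of 3.5 UMIs against 3 for all genes. Of 17 KRAB corepressor genes, 16 were listed with 118 UMIs. In the fit without a filter 0 of them were called in either direction, as were 0% of all 7507 genes. Chd3, a NuRD helicase, had 11, 5 and 5 UMIs in DG and 5, 2 and 4 in CA1, and Dnmt3a, a de novo DNA methyltransferase, had 14, 3 and 2 against 5, 1 and 1. Trim28 itself had 3, 1 and 0 against 1, 0 and 0, and Setdb1 had 1 UMI in all. The list took 0.261%, 0.350% and 0.270% of the UMIs in DG and 0.235%, 0.141% and 0.247% in CA1, with the DG share the higher in every section. The lowest DG share lay above the highest CA1 share. The mean log2 ratio was 0.53 ± 0.68 (SD, n = 3), within the spread between sections, with section 2 at 1.32. No test of these shares was made.

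The table holds a part of the family. RefSeq has 397 protein coding genes with a Zfp symbol and number, of which 130 (32.7%) were listed, close to the 31.4% of all 21900 protein coding genes. Among the 214 that matched the KRAB pattern 24.8% were listed, and among the 183 others 42.1%. Reads that map to several places were not counted, so stretches of 100 bases, the read length, were compared with the transcripts of other genes. A shared stretch can also belong to an overlapping gene, where a read still maps to 1 place. Among genes with no such shared stretch, 30.4% of 102 KRAB genes and 42.4% of 118 others were listed. Listed KRAB transcripts had a median of 3590 bases and unlisted ones 2973, and among the others the medians were 4620 and 3421, so that the listed genes had the longer transcripts in both classes. The parts of shared stretches and of transcript length in the listing were not tested.

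By position, 28 members lie on chromosome 7, where 93 Zfp genes are annotated, and 16 on chromosome 17, where 46 are. These chromosomes gave 64 and 72 of the 466 UMIs. Chromosome 4 had 27 annotated genes and 3 members (11.1%), the smallest share among chromosomes with over 10 annotated. Exons of 30 members overlap those of another gene, and they held 169 UMIs. Among the 12 members with most UMIs this holds for Zfp827, Zfp445, Zfp950, Zfp704, Zfp651 and Zfp462, each with a gene on the opposite strand. The counting ignored strand, so reads in an overlap could not be assigned by strand. With default options, a read on exons of more than 1 annotated gene is left out. These counts may therefore miss reads, or include those of a gene absent from the annotation used. For Zfp708 and Zfp935, with 1 and 2 UMIs, 100% and 99.4% of the stretches occur in another gene, so these counts are uncertain.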

How the data were processed

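UMI counts per gene in 6 RNA libraries were used. To make them, the authors extracted UMIs with UMI-tools, split reads by barcode with cutadapt 4.1, mapped read 1 to mm10 with STAR 2.7.9a, assigned it to genes with featureCounts (Subread 2.0.3, default options, no strand, no multi-mapping reads) and counted UMIs. The deposited counts hold 1 added UMI per gene and library, which was removed here, and a line of column totals was left out. The deposited CPM, ratio and log10 columns were not used. Columns were matched to region and section by the sample labels.

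The members, lists and tests were chosen with earlier results of these data known. Named members were the 12 with the most UMIs, all with a UMI in every library, and, by UMIs alone, role list members with at least 3 UMIs and members with at least 4 in 1 area. Share is UMIs over the sum of the library's UMIs. Shares have exact binomial intervals and pooled ratios exact conditional intervals. DG and CA1 were compared by edgeR 4.0.16 (TMM, filterByExpr with minimum count 10, threshold 0.05), with DESeq2 1.42.0 as an alternative, under R 4.3.3, and by exact permutation with scipy 1.17.1. The edgeR, depth reduction and interval steps were tested on simulated data. KRAB A boxes and fingers were found by pattern in the longest RefSeq protein. The KRAB pattern replaced a first one that was seen to miss KRAB genes. It matched 13 listed members that the first did not and left out 6 that the first matched. Of the symbols, 131 matched RefSeq and 1 matched an older name.

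A DG and a CA1 library with the same number come from 1 section, which pairs them. Their deviations from the region means (log2 of CPM plus 100, across genes) correlated at 0.103, 0.027 and 0.061 in sections 1, 2 and 3.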

Additional observations from a re-analysis of the deposited data

How the results depend on the processing

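Across all genes, 16 of the 19 alternatives called 0 genes by edgeR or DESeq2, as did the reported fit, including those that left out 1 section or library (0 to 0) and the replicate block (0). The other 3, asking for 3 UMIs in 3 libraries, no filter with the replicate block, and, chosen after seeing the data, the former with the replicate block, called 1 gene, Prkce, which is no member. The mean log2 ratio of the summed share ranged from -0.17 to -0.03 without 1 section and moved by less than its SD under every alternative. Leaving out the CCCH genes changed nothing, as none is listed. The mean log2 ratio of members detected ranged from -0.21 to -0.03 without 1 section but was 0.31 as counted and 0.89 for members with at least 2 UMIs, where depth was not equalised. Alternatives for the KRAB split were chosen after seeing the data. The KRAB mean was -0.22 with counts as deposited, -0.29 without members sharing over 10% of stretches, -0.53 with the first KRAB pattern (46 members, not a subset of the 53), -0.33 with either pattern (59 members) and between -0.45 and -0.37 without 1 section. The mean of members without KRAB was -0.070 with counts as deposited and between -0.0022 and 0.13 without 1 section.

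For the 12 members, 8 of 72 alternatives turned the sign of the difference in mean CPM, in 6 genes. With counts as deposited it became 21.2 for Zfp644 and 25.4 for Zfp629. Without 1 section it ranged from -161 (section 2 left out) to 303 for Zfp827, -126 to 115 (section 3) for Zfp644, -173 to 4.25 (section 3) for Zfp704, -98.5 (section 2) to 332 for Zfp326, -308 to 2.87 (section 2) for Zfp462 and -176 to 141 (section 2) for Zfp629, where the section named turned the sign. The causes were not tested beyond the setting itself. Sign changes over sections (replicate block) gave an exact permutation p of 0.25 at the lowest. Depth also limits these values: a member at 0 in the shallowest library could be present at 1055 CPM.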

Other observations

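Other zinc finger classes were listed beside the Zfp genes. The 15 Zbtb genes, which pair fingers with a BTB domain, held 111 UMIs, a mean of 7.4 per gene against 3.53 for Zfp genes. Zbtb20, a transcription factor of hippocampal projection neurons, had 17, 1 and 5 UMIs in DG and 6, 1 and 2 in CA1. The class took 0.300%, 0.109% and 0.191% of the UMIs in DG and 0.224%, 0.176% and 0.288% in CA1, and the areas overlapped. The 9 genes with a Zc3h symbol held 60 UMIs, and the 7 Zkscan and Zscan genes held 14.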
